A study of Mus musculus with 12 samples.

Results

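The 10 genes described here are regulators of the commitment of preadipocytes to fat cells: the zinc finger factors Zfp423 and Zfp467, the early B-cell factors Ebf1 and Ebf2, Prdm16, the GATA factors Gata2 and Gata3, the corepressor Runx1t1, and the signal transducers Stat5a and Stat5b. They were chosen by symbol from the 55487 genes of the expression table, each symbol matched 1 row, and 9 of the 10 passed the filter on low values described next. The values are TPM (a transcript level scaled for transcript length and for the total of its library) from the sequencing of fragmented total RNA. The cells were 3T3-L1, a mouse fibroblast line that becomes fat cells after a hormone cocktail (isobutylmethylxanthine, dexamethasone and insulin). They carried a short hairpin RNA, either scrambled (shScram) or aimed at Fto (shFto), delivered by lentivirus and selected with puromycin, and were collected as preadipocytes (Pre), at mitotic clonal expansion after induction (MCE) and after differentiation (Diff), with 2 libraries in each of 6 groups. Libraries of cells treated with rhein were not analysed here. Which of the study's hairpins was sequenced is not stated, the lines are not said to be clones, and nothing says that the replicates came from separate cultures, so p-values measure only the spread between these libraries. Replicate 1 of shScram Diff carries a title that names shScram and a treatment entry that names the knockdown, and it was placed by its title.

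As background, a fibroblast becomes a preadipocyte when it acquires the ability to switch on Pparg and Cebpa, the factors that run the adipocyte programme. Zfp423 favours that step and sensitises cells to BMP signals, and in white fat it holds back the thermogenic factor Ebf2. Zfp467 pushes stromal cells towards fat and away from bone, Ebf1 acts upstream of Pparg, and Prdm16 with Ebf2 sets the brown fat identity. Gata2 and Gata3 hold cells in the preadipocyte state. Runx1t1 is a corepressor and a regulator of adipogenesis, and its splicing has been tied to FTO, an RNA demethylase. Stat5a and Stat5b carry growth hormone and prolactin signals that favour adipogenesis.

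Zfp423 and Zfp467 were the members called higher in shFto (adjusted p under 0.05, limma over all tested genes) at every stage, so the 250 bases upstream of a RefSeq transcription start of each (GRCm38.p6, minus strand) are shown. Both windows are free of annotated exons. The Zfp423 window is chr8:87959596-87959845, directly upstream of the gene, and the Zfp467 window is chr6:48445091-48445340, inside an intron of the longer transcripts.
Zfp423: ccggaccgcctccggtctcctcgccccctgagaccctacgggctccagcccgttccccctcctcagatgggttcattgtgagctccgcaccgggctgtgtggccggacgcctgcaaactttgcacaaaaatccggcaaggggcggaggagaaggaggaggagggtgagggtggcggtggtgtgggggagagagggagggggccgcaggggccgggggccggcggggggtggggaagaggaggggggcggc
Zfp467: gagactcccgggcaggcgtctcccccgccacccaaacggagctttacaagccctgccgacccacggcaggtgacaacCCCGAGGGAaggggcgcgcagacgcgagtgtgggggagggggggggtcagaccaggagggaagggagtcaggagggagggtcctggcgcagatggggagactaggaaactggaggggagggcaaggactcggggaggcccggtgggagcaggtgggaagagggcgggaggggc
The G and C content was 71.6% in the Zfp423 window and 70.4% in the Zfp467 window, against a median of 52.4% over 32851 mouse promoter windows of the same length. Capitals mark matches, searched on both strands, to GATA (the core of the GATA factor site), TTCNNNGAA (STAT) and CCCNNGGGA (the core of the EBF palindrome). Neither window holds GATA or the STAT letters, and the Zfp467 window holds 1 match to the EBF letters. Of all windows 53.6% hold GATA, 7.02% the STAT letters and 5.6% the EBF letters. A match is a description and not a site, and its absence says nothing about binding of the factors.

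Fto itself was lower in every shFto library than in every shScram library. The shScram libraries held 52.7 and 58.3 TPM at Pre, 59.1 and 55.7 TPM at MCE, and 73.5 and 70.8 TPM at Diff. The shFto libraries held 5.51 and 5.55 TPM at Pre, 6.32 and 6.03 TPM at MCE, and 7.47 and 7.05 TPM at Diff. The mean difference over the stages was -3.09 in log2(TPM + 1) (an exact permutation test within stages, two-sided, p = 0.00926, the smallest that 216 arrangements allow). The preadipocyte markers Dlk1, Pdgfra, Col1a1, Col1a2, Thy1 and Pdgfrb summed to between 2684 and 7699 TPM in every library. Macrophage markers summed to at most 4.01 TPM and endothelial markers to at most 1.15 TPM, and of the muscle list Des carried nearly all of a sum of 3.28 to 13.2 TPM. The 2 libraries of shScram Pre stood apart from each other. Their log2 values correlated with r = 0.939, against 0.990 to 0.993 for the other pairs. The difference of replicate 1 from replicate 2 fell with the G and C content of the transcript (Spearman's rho = -0.688 over 15928 genes, a description since genes are not replicates). In the other pairs rho lay between -0.204 and 0.356. The correlation and rho alone do not tell which library of the pair is the odd one. Replicate 1 held 21290 genes above 0 and replicate 2 held 23374, against 23215 and 23173 in shFto Pre. Whether either library is at fault was not tested. Differences that rest on shScram Pre are given also without replicate 1, while ratios of means use both. Leaving out either library of the pair lowered the spread shared by all groups for many genes. Comparisons that do not use shScram Pre then kept their size and could gain calls.

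Differences are given in log2(TPM + 1), so those of genes at low TPM are smaller than their fold changes, and a gene is called at an adjusted p under 0.05. With 2 libraries on each side, pairs without overlap are common. The shFto and shScram pairs did not overlap in 60.5% of all tested genes at Pre, 71.4% at MCE and 72.9% at Diff. Of the 9 tested members 6, 8 and 8 did not overlap at these stages. In the comparison of shFto with shScram at Pre, 4 of 9 tested members were higher and 1 was lower, where 15.9% of all 15968 tested genes were higher and 12.3% lower. At MCE 2 were higher and 1 was lower (10.5% and 7.26% of all genes), and at Diff again 2 were higher and 1 was lower (11.9% and 9.31%). Zfp423 and Zfp467 were the higher members at MCE and at Diff, and Stat5a was the lower one at both. Without shScram Pre replicate 1, the fit called 6 members at Pre (3 higher, 3 lower), 4 at MCE (3 higher, 1 lower) and 6 at Diff (3 higher, 3 lower), where that fit called 29% of all genes at Pre, 41% at MCE and 45.7% at Diff, against 28.2%, 17.8% and 21.2% with all 12 libraries. A lower level in these bulk samples cannot be told apart from fewer cells that make the transcript.

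**Figure D1:**
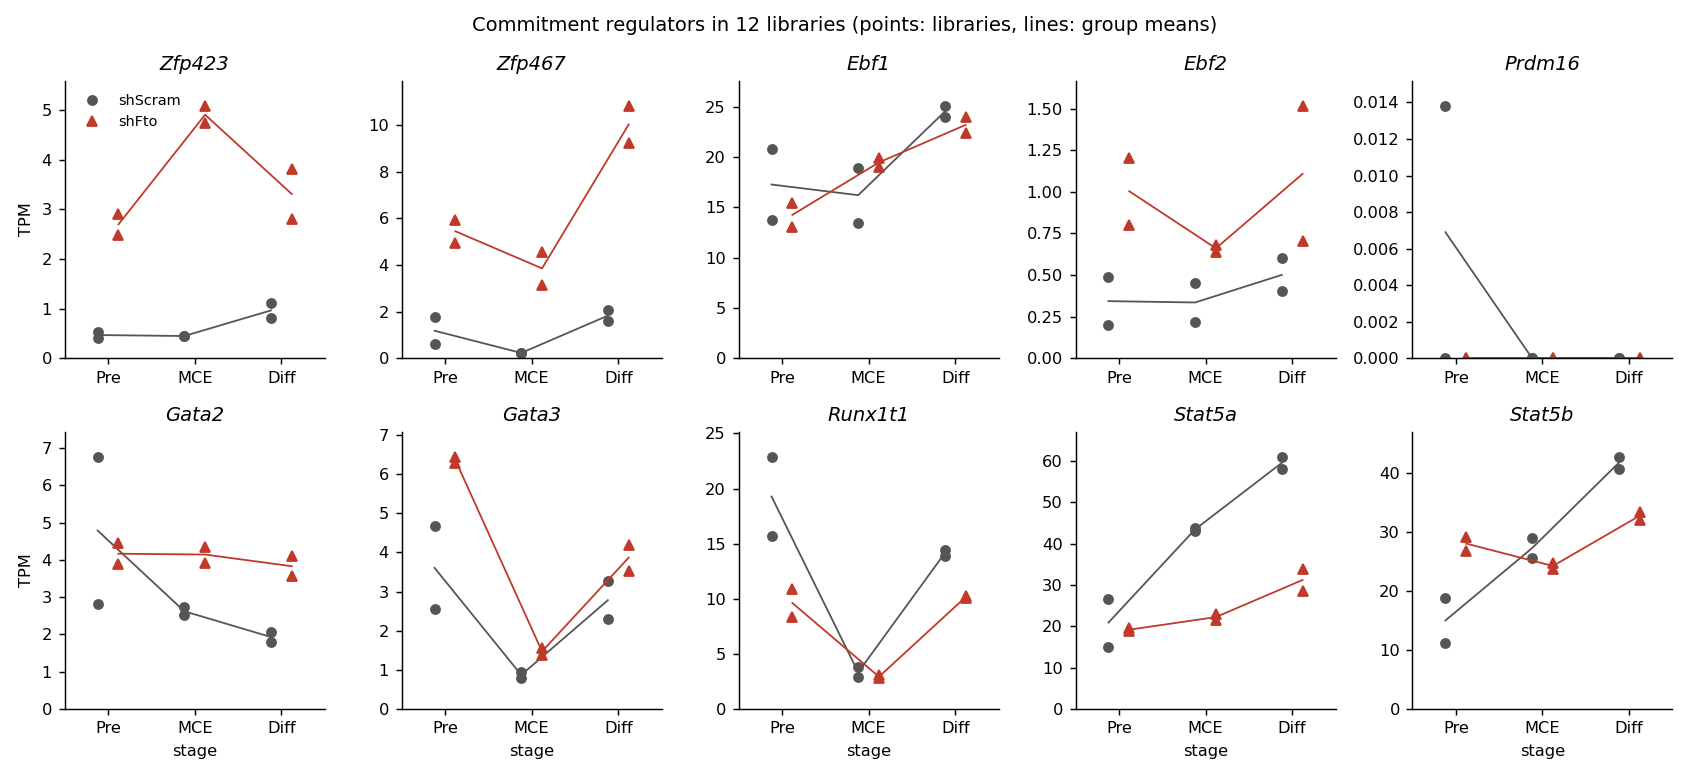
TPM of the 10 genes (vertical axes, each from 0) against stage (horizontal axes) for shScram (grey circles) and shFto (red triangles), with 1 point per library and lines through the means of 2 libraries. The shFto points of Zfp423 and Zfp467 lie above all shScram points of the same stage, Runx1t1 dips at MCE in both lines, and Prdm16 is at 0 in 11 libraries.

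Zfp423 lies at chr8:87661810-87959595 on the minus strand (GRCm38, as are all gene positions here) and no other gene overlaps it. In shScram it was listed at 0.414 and 0.519 TPM at Pre, 0.451 and 0.442 TPM at MCE, and 0.805 and 1.12 TPM at Diff. In shFto it stood at 2.49 and 2.91 TPM at Pre, 5.08 and 4.74 TPM at MCE, and 2.81 and 3.81 TPM at Diff. The lines did not overlap at any stage, and even the lowest shFto library was above the highest shScram library. Of the 7 libraries with 1 TPM or more of Zfp423 all but shScram Diff replicate 2 were shFto libraries, so the gene passed the filter only with the line in which it was high. The ratio of group means was 5.79 at Pre, 11.0 at MCE and 3.44 at Diff. The log2 difference was 1.33 ± 0.17 (SE, adjusted p = 0.00145) at Pre, 2.03 ± 0.17 (adjusted p = 0.000112) at MCE and 1.13 ± 0.17 (adjusted p = 0.00199) at Diff. Without shScram Pre replicate 1 the Pre difference was 1.28 (adjusted p = 0.00222).

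Within shFto, Zfp423 rose from Pre to MCE by 0.68 ± 0.17 (adjusted p = 0.0175), a call that was lost when any of those 4 libraries was left out (adjusted p = 0.0512 to 0.105). In shScram the same step was -0.02 ± 0.17 (adjusted p = 0.945), and -0.07 without shScram Pre replicate 1 (adjusted p = 0.816). The difference between those steps was 0.70 (adjusted p = 0.144; 0.75 without that library, adjusted p = 0.115), and the difference between the lines in the step from MCE to Diff was -0.90 (adjusted p = 0.105). Neither was called with all 12 libraries. The later one, which uses no shScram Pre library, was called at the same size in 4 of 20 alternative settings. These were the fits without shScram Pre replicate 1 or replicate 2, with library weights (adjusted p = 0.0218) and on only the libraries of the contrast (adjusted p = 0.0446).

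Zfp467 (chr6:48427697-48445825, minus strand) was listed in shScram at 0.604 and 1.75 TPM at Pre, 0.223 and 0.223 TPM at MCE, and 2.05 and 1.60 TPM at Diff. The shFto libraries held 4.95 and 5.95 TPM at Pre, 4.56 and 3.14 TPM at MCE, and 9.25 and 10.8 TPM at Diff. Here too every shFto library was above every shScram library. The ratio of means was 4.63 at Pre, 17.3 at MCE and 5.50 at Diff, and the log2 differences were 1.61 ± 0.26 (adjusted p = 0.00419), 1.97 ± 0.26 (adjusted p = 0.00124) and 1.97 ± 0.26 (adjusted p = 0.00103). Leaving out shScram Pre replicate 1 gave 1.22 at Pre (adjusted p = 0.00362). Zfp467 was lowest at MCE in each line and rose from MCE to Diff by 1.20 in shScram (adjusted p = 0.0116) and by 1.20 in shFto (adjusted p = 0.0105), calls lost in 3 and 2 of 20 alternative settings. The step from Pre to MCE was -0.78 in shScram (adjusted p = 0.0436, lost in 16 of 20 alternative settings) and -0.42 in shFto (adjusted p = 0.28). With shScram Pre replicate 1 left out the shScram step was -1.17 (adjusted p = 0.00224). The difference between the lines in this step was 0.36 (adjusted p = 0.558), and 0.75 without that library (adjusted p = 0.13).

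The partners of Zfp423 and of the Ebf factors moved unevenly. Of 11 listed genes 8 were tested, with 1 higher and 0 lower at MCE and 3 higher and 1 lower at Diff. The list's median difference was 0.07 at MCE, against 0.05 over all genes, and -0.20 at Diff, against 0.03. Over all genes 10.5% were higher and 7.26% lower at MCE, and 11.9% and 9.31% at Diff. Without shScram Pre replicate 1 more of the list was called, as was more of all genes. Ccn5, a secreted protein that binds Zfp423 in the cytoplasm and keeps it out of the nucleus, stood in the shScram line at 113 and 117 TPM at MCE and at 20.2 and 16.5 TPM at Diff. Its shFto levels were 689 and 672 TPM at MCE and 283 and 286 TPM at Diff. The difference was 2.56 at MCE (adjusted p = 0.00387) and 3.89 at Diff (adjusted p = 0.000344). Zfp521, a close relative of Zfp423 that opposes it and Ebf1, was lower at Diff, at 14.0 and 15.2 TPM in shFto against 28.5 and 29.3 TPM in shScram (log2 difference -0.94, adjusted p = 0.00597). Smad1, a carrier of BMP signals, was higher at Diff by 0.52 (adjusted p = 0.022), as was its partner Smad4 by 0.39 (adjusted p = 0.0318). The genes whose pattern over the 12 libraries was most like that of Zfp423 were Gdf11 (r = 0.969) and Acot1 (r = 0.965), and for Zfp467 Stxbp2 and Fblim1 (r = 0.981 each). The points of these correlations share their libraries, so r is a description.

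Ebf1 (chr11:44617317-45008091, plus strand) had the narrowest range of the 9 tested members relative to its lowest level, 13.1 to 25.0 TPM over 12 libraries. In shScram it held 20.7 and 13.8 TPM at Pre, 18.9 and 13.5 TPM at MCE, and 24.0 and 25.0 TPM at Diff, and in shFto 13.1 and 15.4 TPM, 19.9 and 19.0 TPM, and 22.4 and 24.0 TPM at the same stages. The knockdown differences were -0.24 at Pre (95% interval -0.72 to 0.24), 0.27 at MCE (-0.21 to 0.75) and -0.08 at Diff (-0.56 to 0.40), with no call in any of the 9 comparisons. Leaving out shScram Pre replicate 1 gave 0.04 at Pre. The steps from MCE to Diff in shScram (0.59) and from Pre to MCE in shFto (0.43) use no shScram Pre library and kept their size. Ebf1 resembled Rbl2 most closely (r = 0.948), then Gemin8 (r = 0.936).

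Ebf2 (chr14:67233292-67430918, plus strand), the brown fat factor of the family, was near the floor of the table. In shScram it was listed at 0.198 and 0.488 TPM at Pre, 0.451 and 0.218 TPM at MCE, and 0.60 and 0.401 TPM at Diff. In shFto the values were 0.803 and 1.20 TPM, 0.680 and 0.640 TPM, and 0.702 and 1.51 TPM. The shFto pair lay above the shScram pair at each stage, with differences of 0.58 at Pre (adjusted p = 0.0859), 0.32 at MCE (adjusted p = 0.41) and 0.47 at Diff (adjusted p = 0.193), none of them called. The Pre difference was 0.42 without shScram Pre replicate 1 and 0.74 without replicate 2. It was called only without replicate 2, in a fit that also called more of all genes. Only 2 libraries, both shFto, reached 1 TPM, so the gene passed the filter only with the line in which it was higher. Its differences are therefore a description. Of its exon bases 424 lie opposite exons of the antisense gene Gm10860, from which reads cannot be told apart if strand was not used. The genes nearest to its pattern were Zxdb (r = 0.923) and Tpd52l2 (r = 0.914).

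Prdm16 (chr4:154316125-154636873, minus strand) was listed at 0 in 11 libraries and at 0.0138 TPM in shScram Pre replicate 1, and it was not tested. Its listed partners, which are chromatin factors of wide use, were all tested: 0 were higher and 2 lower at Pre, 2 were higher and 0 lower at MCE, and 0 were called at Diff by limma (1 at an unadjusted p under 0.05; medians -0.08, 0.23 and 0.00, against 0.08, 0.05 and 0.03 over all genes). At MCE the called ones were Ctbp2 (0.44, adjusted p = 0.0284) and Hdac1 (0.47, adjusted p = 0.0478), a corepressor and a histone deacetylase. Of all genes 15.9% were higher and 12.3% lower at Pre, 10.5% and 7.26% at MCE, and 11.9% and 9.31% at Diff. With shScram Pre replicate 1 left out, more of the partners were called, as was more of all genes. Of 10 brown and beige genes only Ppargc1a, Dio2 and Cox7a1 passed the filter. Dio2, which activates thyroid hormone, was listed at 1.43 and 1.17 TPM at MCE in shScram and at 17.4 and 15.0 TPM in shFto, and at 0.745 and 0.499 TPM at Diff in shScram and at 23.3 and 25.1 TPM in shFto, differences of 2.90 (adjusted p = 1.44e-05) and 3.96 (adjusted p = 1.29e-06). Ppargc1a and Cox7a1 were not called at MCE or Diff.

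Gata2 (chr6:88193891-88207032, plus strand) was listed in shScram at 2.81 and 6.76 TPM at Pre, 2.51 and 2.72 TPM at MCE, and 2.06 and 1.80 TPM at Diff. In shFto it stayed between 3.56 and 4.44 TPM, with 3.89 and 4.44 TPM at Pre, 3.93 and 4.36 TPM at MCE, and 3.56 and 4.10 TPM at Diff. The shFto pair lay above the shScram pair at MCE and at Diff and between its libraries at Pre. The differences of 0.51 at MCE (adjusted p = 0.283) and 0.72 at Diff (adjusted p = 0.111) were not called with 12 libraries. They use no shScram Pre library, and leaving out either library of that pair kept their size and lowered their SE from 0.28 to 0.15. Each was called in 4 of 20 alternative settings, those fits among them, and these settings also called more of all genes. At Pre the difference was -0.08 with all libraries (adjusted p = 0.854), -0.59 without shScram Pre replicate 1 (adjusted p = 0.0362) and 0.44 without replicate 2 (adjusted p = 0.0616), so its direction depended on which of the pair was kept. Gata2 is rich in G and C (58.2% of its longest transcript, above 91.3% of tested genes), and its shScram Pre libraries differed by -1.03 (replicate 1 minus replicate 2). Whether the G and C content had a part in this was not tested.

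Gata3 (chr2:9857078-9890034, minus strand) moved with the stage in both lines. In shScram it was listed at 2.54 and 4.67 TPM at Pre, 0.946 and 0.786 TPM at MCE, and 3.26 and 2.30 TPM at Diff. In shFto it was listed at 6.28 and 6.45 TPM, 1.39 and 1.55 TPM, and 4.20 and 3.53 TPM. The lowest libraries of each line were those of MCE. From Pre to MCE it fell by 1.27 in shScram (adjusted p = 0.00336) and by 1.58 in shFto (adjusted p = 0.00115), and from MCE to Diff it rose by 1.01 (adjusted p = 0.0145) and 0.98 (adjusted p = 0.0148). The fall in shScram was -1.60 without shScram Pre replicate 1 (adjusted p = 0.000181), and its call was lost in 2 of 20 alternative settings. The calls of the rises were lost in 4 of 20 settings in shScram and 5 of 20 in shFto, and under quantile normalization the rises were 0.57 (adjusted p = 0.0951) and 0.45 (adjusted p = 0.151). The knockdown difference at Pre was 0.72 ± 0.23 (adjusted p = 0.0488), a call lost in 18 of 20 alternative settings, among them the fit without shScram Pre replicate 1 (0.38, adjusted p = 0.211). At MCE and Diff the differences were 0.40 (adjusted p = 0.297) and 0.37 (adjusted p = 0.303). Some of its exon bases are shared with Gm13256 on the opposite strand (155 bases) and 9230102O04Rik on the same strand (77 bases).

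Of the 9 listed Gata partners 5 were tested. At Pre 2 were higher and 1 lower (median 0.82, against 0.08 over all genes). Both at MCE and at Diff 1 was higher and 0 lower (medians 0.46 and 0.40, against 0.05 and 0.03). The shares of all genes higher and lower were 15.9% and 12.3% at Pre, 10.5% and 7.26% at MCE, and 11.9% and 9.31% at Diff. In the fit without shScram Pre replicate 1 more partners were called at MCE and Diff, as was more of all genes. The called gene was Gata6, another GATA factor, with a role in endoderm, at 8.68 and 7.72 TPM in shScram MCE and 12.5 and 13.5 TPM in shFto MCE (0.61, adjusted p = 0.0449), and at 10.4 and 9.47 TPM in shScram Diff and 21.4 and 20.1 TPM in shFto Diff (0.99, adjusted p = 0.00441). The patterns nearest to Gata3 were those of Ctsa (r = 0.989) and Cnn2 (r = 0.984), and nearest to Gata2 were Mb21d2 (r = 0.926) and Mvd (r = 0.919).

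**Figure D2:**
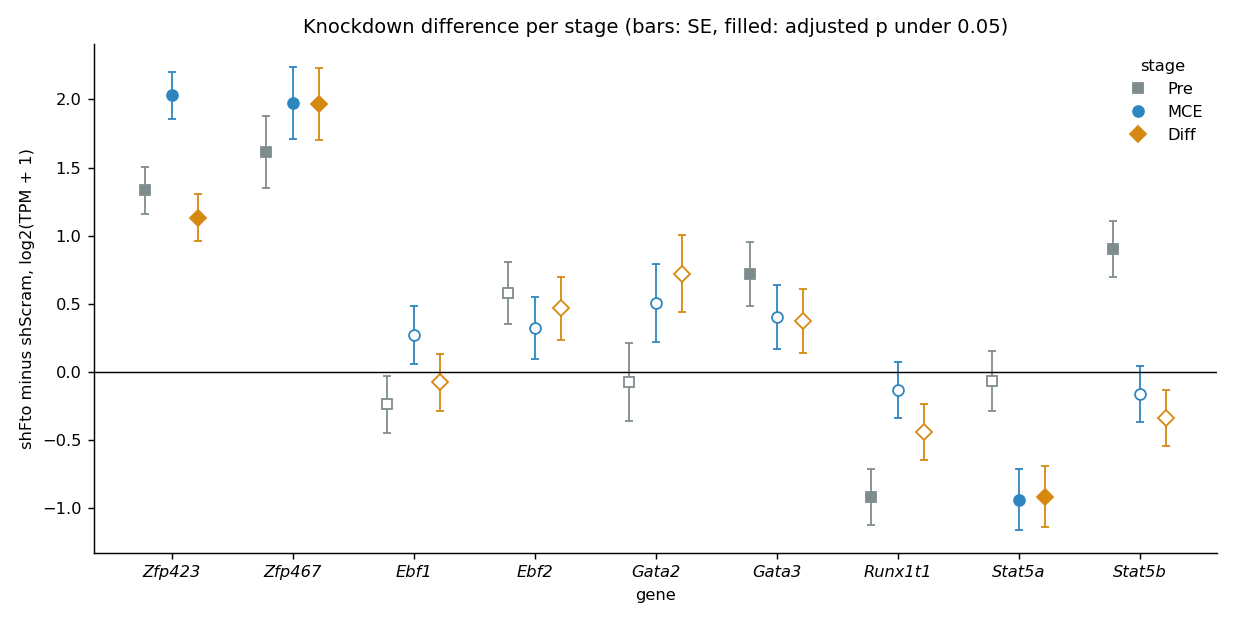
Difference of shFto from shScram on the log2(TPM + 1) scale (vertical axis) for the 9 tested genes (horizontal axis) at Pre (squares), MCE (circles) and Diff (diamonds), with bars of 1 SE and filled symbols at an adjusted p under 0.05. Zfp423 and Zfp467 are filled and above 0 at all 3 stages, and Stat5a is filled and below 0 at MCE (-0.94) and Diff (-0.92).

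Runx1t1 (chr4:13743436-13893649, plus strand) has 6 annotated transcripts, and the table gives a single value per gene, so isoforms cannot be seen here. In shScram it held 22.9 and 15.7 TPM at Pre, 3.78 and 2.85 TPM at MCE, and 13.9 and 14.4 TPM at Diff. In shFto it held 8.38 and 10.8 TPM at Pre, 2.76 and 3.06 TPM at MCE, and 10.1 and 10.2 TPM at Diff. All 4 MCE libraries were below all 8 others. From Pre to MCE it fell by 2.22 ± 0.20 in shScram (adjusted p = 7.58e-05) and by 1.43 ± 0.20 in shFto (adjusted p = 0.000953), and from MCE to Diff it rose by 1.82 ± 0.20 (adjusted p = 0.000534) and 1.51 ± 0.20 (adjusted p = 0.00107). The difference between the lines in the first step was 0.79 (adjusted p = 0.158), and in the second -0.31 (adjusted p = 0.719). Leaving out shScram Pre replicate 1 gave -1.96 for the fall in shScram and 0.53 for the difference in the first step. Leaving out replicate 2 gave 1.05 for that difference. It was called only without replicate 2, in a fit that also called more of all genes.

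Against shScram, Runx1t1 in shFto was lower at Pre, with a log2 difference of -0.92 ± 0.20 (adjusted p = 0.0139) and a ratio of means of 0.499. Its shScram Pre libraries themselves differed by 0.52, and without replicate 1 the difference was -0.66 (adjusted p = 0.0248). At MCE the lines overlapped (-0.13, 95% interval -0.60 to 0.33, adjusted p = 0.732). At Diff both shFto libraries were below both shScram libraries, at a ratio of 0.717 and a difference of -0.44 (adjusted p = 0.167). That difference was called in 4 of 21 alternative settings, among them the fit without shScram Pre replicate 1, a library it does not use.

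Runx1t1 acts with the RUNX factors, their partner Cbfb and the NCOR and HDAC3 corepressors. Of 12 such genes, which include the splicing factor Srsf2, 10 were tested. At Pre 2 were higher and 2 lower (median -0.34, against 0.08 over all genes), and at MCE and at Diff 2 were higher and 0 lower (medians 0.22 and 0.02, against 0.05 and 0.03). Among all genes 15.9% were higher and 12.3% lower at Pre, 10.5% and 7.26% at MCE, and 11.9% and 9.31% at Diff. Once shScram Pre replicate 1 was dropped, more of the list was called, as was more of all genes. The higher pair at MCE and Diff was Runx1 and Runx2, DNA-binding factors of blood and bone. Runx1 was listed at 2.80 and 2.44 TPM in shScram MCE and at 11.2 and 11.9 TPM in shFto MCE (1.79, adjusted p = 0.000122), and at 2.20 and 2.56 TPM in shScram Diff and 7.65 and 9.45 TPM in shFto Diff (1.49, adjusted p = 0.000255). Runx2 differed by 1.35 at MCE (adjusted p = 0.00195) and by 0.93 at Diff (adjusted p = 0.0102). Srsf2 differed by 0.01 at MCE (adjusted p = 0.971) and -0.36 at Diff (adjusted p = 0.14).

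**Figure D3:**
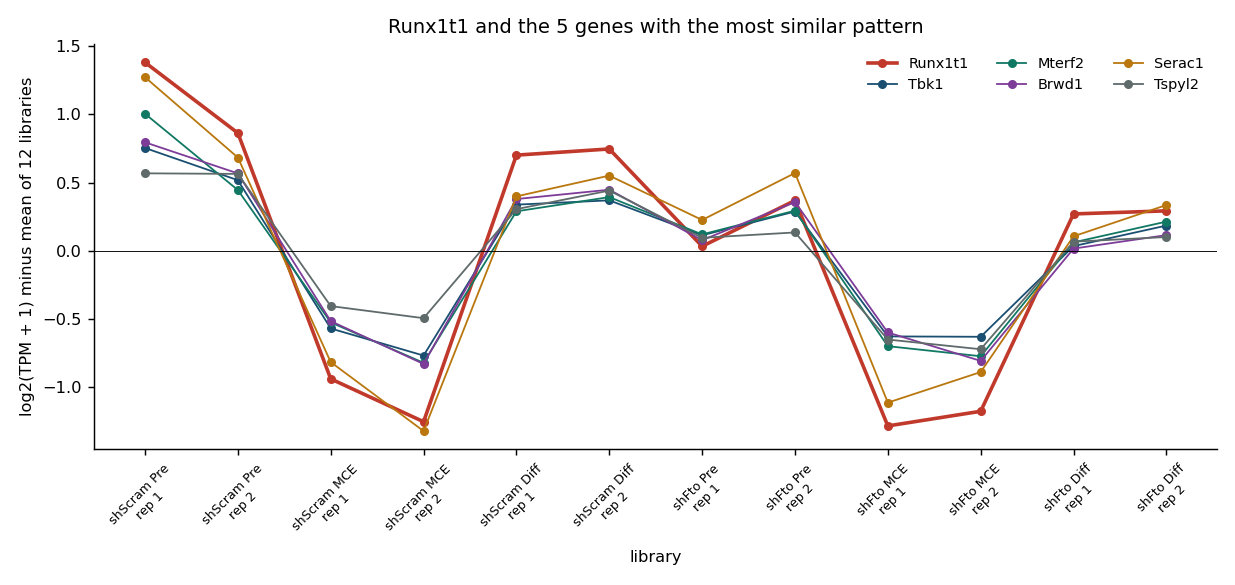
Log2(TPM + 1) of Runx1t1 and 5 other genes, each minus its own mean over 12 libraries (vertical axis), in the 12 libraries ordered by line and stage (horizontal axis). All 6 genes are lowest in the 4 MCE libraries, and Runx1t1 has the widest swing, apart from Serac1 in shScram MCE replicate 2.

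Among 10798 genes with a mean of at least 5 TPM, the 5 whose pattern over the 12 libraries was most like that of Runx1t1 were Tbk1 (r = 0.991), Mterf2 (r = 0.986), Brwd1 (r = 0.985), Serac1 (r = 0.983) and Tspyl2 (r = 0.980). Like Runx1t1 they were lowest at MCE in both lines, as the plot of centred values by library shows. The points share their libraries, and the libraries of a group are close to each other.

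Stat5a (chr11:100859351-100885169, plus strand) and Stat5b (chr11:100780731-100850724, minus strand) are neighbours 8626 bases apart with their starts facing each other. Their longest transcripts share 421 windows of 50 bases, 10.8% of those of Stat5a and 8.15% of those of Stat5b, so some reads could be split between them, and 72 exon bases of Stat5a lie opposite exons of Stat3. Stat5a in shScram held 15.1 and 26.7 TPM at Pre, 43.8 and 43.2 TPM at MCE, and 61.0 and 58.1 TPM at Diff. In shFto it held 18.7 and 19.6 TPM at Pre, 22.9 and 21.6 TPM at MCE, and 28.5 and 33.9 TPM at Diff. At Pre the shFto pair lay between the shScram libraries, and at MCE and Diff it lay below them. The difference was -0.94 ± 0.22 at MCE (adjusted p = 0.0194) and -0.92 ± 0.22 at Diff (adjusted p = 0.0186), at ratios of means of 0.511 and 0.524, and -0.07 at Pre (adjusted p = 0.837). If shScram Pre replicate 1 is omitted, the Pre difference was -0.46 (adjusted p = 0.013), and without replicate 2 it was 0.33 (adjusted p = 0.0273), so at Pre the direction was set by the library kept.

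From Pre to MCE Stat5a rose in shScram by 1.08 ± 0.22 (adjusted p = 0.00562), while the step in shFto was 0.20 ± 0.22 (adjusted p = 0.551). The difference between the steps was -0.87 (adjusted p = 0.151) and was not called. Both values depended on the shScram Pre library kept. Without replicate 1 the shScram step was 0.68 and the difference between the steps -0.48, and without replicate 2 they were 1.47 and -1.27. The difference between the steps was called only without replicate 2, in a fit that also called more of all genes. The call of the shScram step was lost in 2 of 21 alternative settings. From MCE to Diff the steps were 0.45 in shScram and 0.47 in shFto, and neither was called with all 12 libraries. They use no shScram Pre library and kept their size without replicate 1 of that pair.

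Stat5b in shScram held 11.1 and 18.9 TPM at Pre, 28.9 and 25.6 TPM at MCE, and 42.7 and 40.7 TPM at Diff. In shFto it held 26.8 and 29.2 TPM, 23.6 and 24.7 TPM, and 32.0 and 33.4 TPM. The shFto pair was above the shScram pair at Pre and below it at MCE and Diff. At Pre the difference was 0.90 ± 0.21 (adjusted p = 0.0151), and without shScram Pre replicate 1 it was 0.55 (adjusted p = 0.00446). At MCE it was -0.16 (adjusted p = 0.67) and at Diff -0.34 (adjusted p = 0.286). The Diff difference was called in 4 of 21 alternative settings, among them the fit without shScram Pre replicate 1, a library it does not use. In shScram Stat5b rose from Pre to MCE by 0.86 ± 0.21 (adjusted p = 0.0108), and in shFto the step was -0.20 (adjusted p = 0.521). The difference between these steps was -1.07 ± 0.29 (adjusted p = 0.0741). Leaving out shScram Pre replicate 1 gave 0.51 for the shScram step and -0.71 for the difference between the steps. Leaving out replicate 2 gave 1.22 and -1.42. Both fits called that difference, and both also called more of all genes. The call of the shScram step was lost in 3 of 21 alternative settings.

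TPM is scaled for length, so the levels of the paralogs can be set side by side within each library. The ratio of Stat5a to Stat5b in shScram was 1.36 and 1.42 at Pre, 1.52 and 1.69 at MCE, and 1.43 and 1.43 at Diff. In shFto it was 0.699 and 0.670 at Pre, 0.968 and 0.871 at MCE, and 0.891 and 1.02 at Diff. All 6 shScram libraries, replicate 1 of Pre among them, were above all 6 shFto libraries. This ratio was chosen after its values were seen and was not tested.

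**Figure D4:**
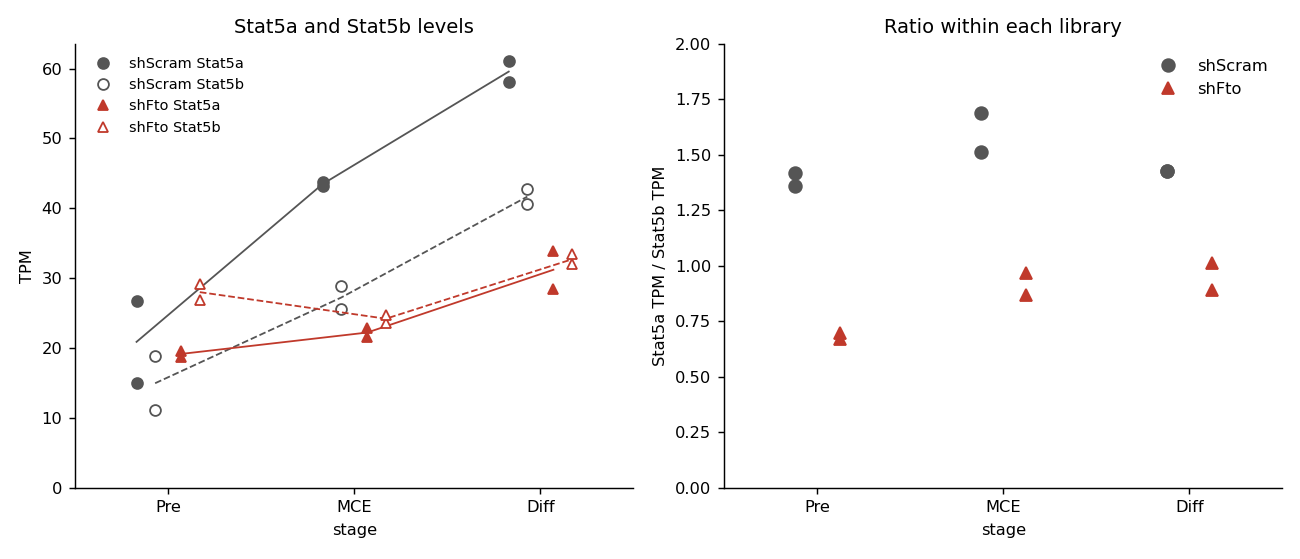
Left, TPM of Stat5a (filled symbols, solid lines) and Stat5b (open symbols, dashed lines) by stage in shScram (grey) and shFto (red), with 1 point per library and lines through the means. Right, the ratio of Stat5a to Stat5b TPM in each library, which lies between 1.36 and 1.69 in shScram and between 0.670 and 1.02 in shFto.

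Among the receptors and kinases upstream of Stat5, 6 of 8 were tested. At MCE 1 was higher and 1 lower (median 0.06, against 0.05 over all genes), and at Diff 0 were higher and 2 lower (median 0.06, against 0.03). For all genes the shares higher and lower were 10.5% and 7.26% at MCE, and 11.9% and 9.31% at Diff. More of the list was called without shScram Pre replicate 1, as was more of all genes. Lifr, a receptor of the leukaemia inhibitory factor family, was listed at 34.3 and 28.3 TPM in shScram MCE and at 17.3 and 14.8 TPM in shFto MCE (-0.92, adjusted p = 0.00618), and it differed by -1.02 at Diff (adjusted p = 0.00317). Ghr, the growth hormone receptor, was lower at Diff, at 167 and 168 TPM in shFto against 275 and 303 TPM in shScram (-0.78, adjusted p = 0.0288). Csf2rb, the shared receptor chain for interleukin 3 and related cytokines, differed by 1.01 at MCE (adjusted p = 0.00346) at levels of at most 1.58 TPM.

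The list of Stat5 targets and feedback genes holds genes that other STAT factors also drive. All 9 were tested. Already at Pre 5 were higher and 2 lower (median 0.75, against 0.08 over all genes). At MCE 3 were higher and 1 lower (median 0.53, against 0.05), and at Diff 5 were higher and 1 lower (median 0.70, against 0.03). Shares of all genes higher and lower were 15.9% and 12.3% at Pre, 10.5% and 7.26% at MCE, and 11.9% and 9.31% at Diff. Leaving out shScram Pre replicate 1, more of the list was called at MCE and Diff, as was more of all genes. Pim1, a survival kinase, was listed at 1.65 and 2.18 TPM in shScram Diff and at 30.3 and 33.1 TPM in shFto Diff (3.49, adjusted p = 3.17e-05). Socs3, a feedback inhibitor of cytokine receptors, stood at 41.2 and 44.5 TPM in shScram MCE and at 142 and 128 TPM in shFto MCE (1.64, adjusted p = 0.0345), and it differed by 2.52 at Diff (adjusted p = 0.00417). Igf1, the growth factor induced by growth hormone, differed by 1.38 at MCE (adjusted p = 0.00106) and 1.13 at Diff (adjusted p = 0.00251). Aox1, an aldehyde oxidase of adipocytes, was the lower one, at -1.0 at MCE (adjusted p = 0.00135) and -0.83 at Diff (adjusted p = 0.00279), the same direction as Stat5a.

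Other Stat factors were also measured. Stat2, which carries interferon signals, was listed at 17.1 and 15.0 TPM in shScram MCE and at 46.4 and 49.0 TPM in shFto MCE (1.51, adjusted p = 0.000172), and at 27.1 and 33.9 TPM in shScram Diff and 134 and 133 TPM in shFto Diff (2.1, adjusted p = 2.27e-05). Stat3, which carries interleukin 6 signals, differed by 0.49 at MCE (adjusted p = 0.0133) and 0.75 at Diff (adjusted p = 0.00129). Both were called in the direction opposite to that of Stat5a, while Stat6 differed by 0.03 at MCE and -0.14 at Diff and was not called. The genes closest to Stat5a in pattern were Pttg1ip (r = 0.988) and Hadh (r = 0.982), and those closest to Stat5b were Tom1l2 (r = 0.970) and Chst12 (r = 0.967).

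**Figure D5:**
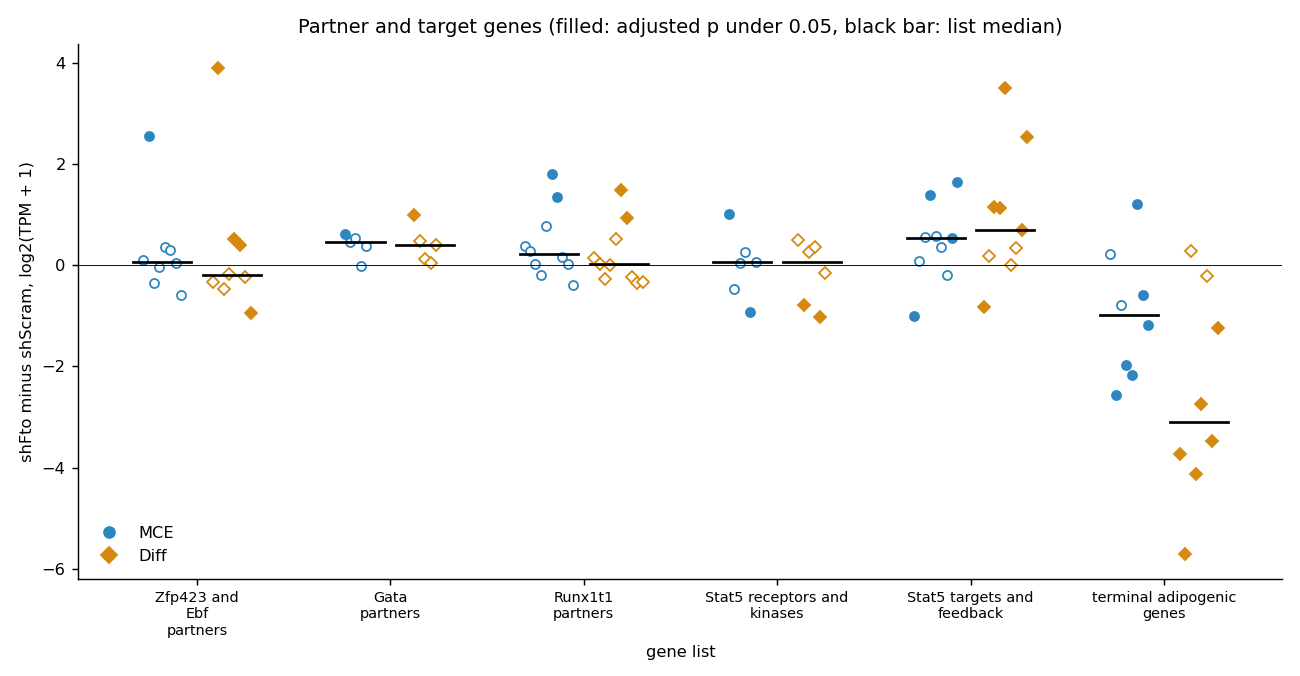
Difference of shFto from shScram on the log2(TPM + 1) scale (vertical axis) for the tested genes of 6 lists (horizontal axis) at MCE (blue circles) and Diff (orange diamonds), filled at an adjusted p under 0.05, with black bars at the list medians. The medians lie at 0.53 and 0.70 for Stat5 targets and at -0.99 and -3.11 for terminal adipogenic genes.

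The adipocyte genes to which these regulators lead give the state of the cells at each stage. At Pre 1 of 8 was higher and 0 were lower, at MCE 1 was higher and 5 lower (median -0.99, against 0.05), and at Diff 0 were higher and 6 lower (median -3.11, against 0.03). All genes were higher and lower at shares of 15.9% and 12.3% at Pre, 10.5% and 7.26% at MCE, and 11.9% and 9.31% at Diff. With shScram Pre replicate 1 left out, the list's calls hardly changed, though that fit called more of all genes. Cd36, a fatty acid transporter, was listed at 148 and 151 TPM in shScram Diff and at 2.71 and 1.24 TPM in shFto Diff (-5.71, adjusted p = 1.34e-06). Cidec, a lipid droplet protein, differed by -4.12 (adjusted p = 1.68e-06), and Adipoq, which encodes adiponectin, by -3.72 (adjusted p = 5.28e-06). In shFto Diff low adipocyte genes stood beside high Zfp423 and Zfp467 and low Stat5a, and what part the share of differentiated cells had in these levels was not tested. Among preadipocyte markers 1 of 6 was higher and 1 lower at MCE and 1 higher and 0 lower at Diff. More of them were called without shScram Pre replicate 1, as was more of all genes. Thy1 was higher by 1.14 (adjusted p = 0.0018) and 1.00 (adjusted p = 0.00283) at these stages, and Dlk1 was lower at MCE (-1.32, adjusted p = 0.00357). Cd68 was the single macrophage marker tested and was not called, no endothelial marker passed the filter, and Des was the single muscle marker tested, with a difference of 0.75 at MCE (adjusted p = 0.0211) and 0.52 at Diff (adjusted p = 0.0765).

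Across stages, the 9 members moved as follows. In shScram from Pre to MCE 2 were higher and 3 lower, where 12.2% of all genes were higher and 26.9% lower, and from MCE to Diff 3 were higher and 0 lower (20% and 5.22%). In shFto 1 was higher and 2 were lower in the earlier step (8.8% and 19.9%), and 3 were higher and 0 lower in the later one (20.2% and 6.48%). Runx1t1, Gata3 and Zfp467 were the members that rose from MCE to Diff in both lines. Over all genes the median step was -0.17 from Pre to MCE and 0.23 from MCE to Diff in shScram, and -0.18 and 0.17 in shFto. Median-ratio scaling between libraries brings such medians near 0 by its design, and it moved them to between -0.00298 and 0.0101. The step from Pre to MCE in shScram uses the same 2 libraries as the knockdown comparison at Pre. No member was called in either comparison of steps between the lines, where 2.52% of genes were higher and 2.59% lower from Pre to MCE and 1.47% and 1.01% from MCE to Diff. At an unadjusted p under 0.05 stood Zfp423, Runx1t1, Stat5a and Stat5b for the earlier step and Zfp423 for the later one. In the fit without shScram Pre replicate 1 the counts over the 4 stage steps, in the same order, were 6, 6, 4 and 5, where it called 48.1%, 52%, 51.1% and 50.9% of all genes, against 39.1%, 25.2%, 28.7% and 26.7% with all 12 libraries. In that fit the comparisons of steps called 2 members for the earlier step, Gata2 (1.1, adjusted p = 0.0135) and Stat5b, where 14.1% of all genes were called, and Zfp423 for the later one, where 17.1% were.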

How the data were processed

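Input libraries of fragmented total RNA were used, 2 for each of 6 groups. Per the submitters' notes and the study's methods, Trim Galore 0.6.5 trimmed the reads and HISAT2 2.1.0 mapped them to GRCm38. The deposited values are TPM, which the authors computed with StringTie 2.1.4 on Ensembl release 102. Their own tests used DESeq2 1.30.1 on counts not used here. Strand use in counting is not given in the sources used here. TPM keeps no depth, which is therefore unknown. Between 20853 and 24018 genes were above 0 per library, and the 2 libraries per group limit the precision.

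From the deposited TPM, log2(TPM + 1) was fitted with limma 3.58.1 in R 4.3.3 (group means, trended eBayes, 6 residual degrees of freedom, two-sided, Benjamini-Hochberg over 15968 genes with at least 1 TPM in at least 2 of 12 libraries). The fit was also run on simulated data with the same spread in every group. That run says nothing about a pair as far apart as shScram Pre. Positions, exon overlaps, transcript sequences and their G and C content came from GENCODE M21 (99.4% of identifiers matched), promoters from RefSeq, which held 8 of the 10 members. Runx1t1 and Ebf2 were not matched. Python 3.11.15 with pandas 2.3.3 was used. The named genes are all members and Fto, from each list at most the 3 genes with the largest difference among those called in a knockdown comparison at MCE or Diff, and the 5 genes (Runx1t1) or 2 genes (other members) of highest Pearson's r with a mean TPM of at least 5. Smad4, Aox1, Stat6, Srsf2, Ppargc1a, Cox7a1, Cd68, the ratio of Stat5a to Stat5b and the EBF motif were added after values were seen. The members and lists were chosen with earlier results of these data known. Alternatives changed the pseudocount (0.1), filter, scaling, spread, weights, block, call rule and libraries. A further gene of the lists is not reported here.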

Additional observations from a re-analysis of the deposited data

Results flagged for a closer look

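Stat5b drew attention because the knockdown difference had opposite directions at different stages. Both shFto libraries were above both shScram libraries at Pre and below them at MCE and at Diff. Such pairs without overlap were the usual case (60.5% of all tested genes at Pre, 71.4% at MCE and 72.9% at Diff). The Stat5b differences at MCE and Diff were not called (limma, adjusted p = 0.67 and 0.286). The difference at MCE minus that at Pre was -1.07 ± 0.29 on the log2(TPM + 1) scale (limma interaction, adjusted p = 0.0741). The difference at Diff minus that at Pre was -1.24, and that change was not tested. Without shScram Pre replicate 1, the difference at Pre was 0.55, and the difference at MCE minus that at Pre was -0.71. Without replicate 2 the latter was -1.42. It was called in 4 of 21 alternative settings, these among them. Both of these fits also called more of all genes than the fit with all 12 libraries.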

How the results depend on the processing

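Zfp423 and Zfp467 stayed higher in shFto, with an adjusted p under 0.05, under all 20 alternatives at MCE and at Diff, and under 18 of 20 at Pre. The filter of a mean TPM of 5 or more left both untested (means 2.13 and 3.76 TPM) and is not among the 20. Zfp423 passed the main filter only with its shFto libraries, so this stability is a description and no added support. The call of Stat5a was lost in 5 of 21 alternatives at MCE and 4 of 21 at Diff. Numbers of called members follow in the order knockdown at Pre, MCE and Diff, then the steps Pre to MCE and MCE to Diff in shScram and in shFto. A mean TPM of 5 or more as filter, which leaves fewer members tested, gave 2, 1, 1, 3, 1, 1 and 1 (of all genes tested there 34%, 20.4%, 20.9%, 44.8%, 25%, 29.6% and 24.8%). Fits on only the libraries of the contrast gave 0 at Pre, 6 at Diff, 0 and 6 in shScram, 6 from MCE to Diff in shFto and 1 for the later comparison of steps. Library weights gave 0 at Pre, 6 at Diff, 1 and 6 in shScram, 6 from MCE to Diff in shFto and 1 for the later comparison of steps. Of all genes these weights called 2.64%, 45.4%, 8.85%, 47.5%, 58.1% and 18.5% in that order, and the fits on only the libraries of the contrast 0%, 41.4%, 3.16%, 40.4%, 54.4% and 16.9%. The study's thresholds (fold over 2, unadjusted p) gave 2 at Pre, 3 for the earlier shScram step and 1 for the earlier comparison of steps (15%, 19.7% and 9.63% of all genes), for which quantile normalization and median-ratio scaling also gave 1 each (5.26% and 5.78%). Leaving out each library gave 2 to 8, 2 to 4 and 2 to 6 for the knockdown, 3 to 6 and 1 to 6 in shScram, 2 to 4 and 1 to 5 in shFto, and 0 to 4 and 0 to 1 for the comparisons of steps, where the same fits called 7.32% to 62.8%, 7.61% to 41% and 10.3% to 45.7% of all genes for the knockdown, 20.6% to 64.7% and 10.1% to 52% in shScram, 16% to 51.1% and 12.6% to 51% in shFto, and 1.6% to 52.5% and 0.783% to 17.1% for the comparisons of steps. Where a left-out library leaves a group with 1 library, that library is assumed to vary like the other groups. The direction turned for Ebf1 at Pre (0.0404 without shScram Pre replicate 1, -0.52 without replicate 2), Gata2 at Pre (-0.59 without shScram Pre replicate 1, 0.44 without replicate 2, 0.00043 without shFto Pre replicate 1), Runx1t1 at MCE (0.023 without shScram MCE replicate 1, -0.29 without replicate 2) and Stat5a at Pre (-0.46 without shScram Pre replicate 1, 0.33 without replicate 2). The cause was not tested. The replicate numbers did not pair the samples (correlation of deviations over 0.1 in 2 of 15 pairs of groups, range -0.29 to 0.17). With the replicate number as a block 4, 3 and 3 members were called for the knockdown, 4 and 3 in shScram, 3 and 3 in shFto, and 0 for each comparison of steps. That fit called 23.9%, 15.2%, 18.9%, 36.5%, 22%, 26.6%, 24.3%, 3.46% and 1.61% of all genes in that order.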
